A study of Mus musculus with 6 samples.

Results

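Serpins and plasminogen activators were followed as an 8-gene set in mouse adipose derived mesenchymal stem cells (AD-MSCs) sorted for the surface enzyme CD73. The set holds Serpinb1a, Serpinb2, Serpinb9, Serpine2 and Serpinf1 of the serpin family, the proteases Plau and Plat, and the receptor Plaur. Its members were selected by name, with Serpinb1a chosen for being among the largest rises in CD73+ cells, so the values of the members in this contrast are a description and carry no test. Of the 8 genes, 7 were measured, by 12 probe sets annotated to a single gene, among 18193 genes in all. Serpine2 was not analysed here.

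Gene expression was read on 3 arrays of CD73+ AD-MSCs and 3 arrays of CD73- AD-MSCs. Both came from groin fat of adult C57BL/6 mice, were separated on CD73 by flow cytometry, grown again in low sugar medium with serum, and collected at the fifth passage with no other treatment. Cells therefore grew for several passages between the sort and the RNA. No source used here states whether the replicates came from separate mice, sorts or cultures, so errors and p-values cover only how far these arrays differ, which could be technical variation.

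Serpins are a family of proteins that mostly trap serine proteases by an irreversible change of shape after the protease cuts a loop exposed on the serpin. The tissue activator (Plat) and urokinase (Plau) cut plasminogen into plasmin, which dissolves fibrin and degrades matrix. The urokinase receptor Plaur holds urokinase at the cell surface. Serpinb2 and Serpine2 are inhibitors of this activation. In stromal and vascular tissue the system is known for its part in cell migration, clot removal and matrix turnover.

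The gene of the sorted enzyme, Nt5e, had log2 signals of 7.84, 7.60 and 7.74 on the CD73+ arrays, against 7.29, 6.39 and 6.84 on the CD73- arrays. Its difference was 0.88 ± 0.20 (SE; limma adjusted p = 0.0218), while its other 2 probe sets differed by 0.03 and -0.12 and were not called. Dropping replicate 1 or 3 of the CD73+ group, or replicate 3 of the CD73- group, ended the Nt5e call (limma adjusted p of 0.0563 to 0.0763). Array medians lay between 5.28 and 5.37 in log2 units, and arrays correlated at 0.9967 to 0.9982 within groups and 0.9926 to 0.9934 between them. The 12 poly-A control probe sets, which read RNA added to each sample, averaged 0.93 lower in CD73+ arrays. Scaling on them moved the median difference of all probe sets to 0.93, so every direction given here is on the deposited scale, which holds the arrays' distributions alike. Values relative to that shift are the same. The 6 genes called lower among the other serpins and the plasminogen, receptor and coagulation genes below read higher after it. The 18 hybridisation controls averaged 0.23 lower in CD73+ arrays. The signal of the beta-actin control at its 3' end minus that at its 5' end, a sign of RNA quality, was 0.08 ± 0.01 in CD73+ arrays and 0.19 ± 0.03 in CD73- arrays, and for Gapdh it was -0.27 ± 0.04 in CD73+ arrays and -0.30 ± 0.02 in CD73- arrays (SD, n = 3 each). The part of these controls in the differences given here was not tested. Of 11 stromal markers measured, 7 were called higher and none lower, and their mean level ranged from 9.53 to 9.56 in CD73+ arrays and from 9.06 to 9.07 in CD73- arrays. Thy1 differed by 0.65 and Col1a1 by 0.85.

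Serpinb1a, the mouse counterpart of the human inhibitor of neutrophil elastase, proteinase 3 and cathepsin G, had the largest difference of the set. Its brighter probe set read 7.69, 7.86 and 7.75 on the CD73+ arrays, against 5.90, 5.99 and 5.53 on the CD73- arrays. All 3 CD73+ arrays lay above all 3 CD73- arrays, and the gap between the groups was 1.70. The means were 7.76 ± 0.09 in CD73+ cells and 5.80 ± 0.24 in CD73- cells (SD, n = 3 each), a difference of 1.96 ± 0.12 on the log2 scale (SE) or 3.89-fold. This was the value that chose the gene, and it ranked 5 among the 18193 genes. Olr1 and Gas1 stood just before it with differences of 2.08 and 1.96, and Lcn2 and Aoc3 just after it with 1.93 and 1.70.

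The second Serpinb1a probe set read 4.07, 3.94 and 4.15 on CD73+ arrays and 3.36, 3.38 and 3.36 on CD73- arrays. It differed by 0.69 ± 0.07 (SE) in the same direction, without overlap. This probe set lay below the median of every array and, by the suffix of its name, its probes may be shared with transcripts of other genes. Whether either probe set also reads the related Serpinb genes beside Serpinb1a was not tested.

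Serpinb2, known as plasminogen activator inhibitor type 2, is an inhibitor of urokinase that is found mostly inside cells and is strongly inducible in monocytes and other cells. It read 9.26, 9.33 and 9.29 on the CD73+ arrays, against 8.85, 8.77 and 8.64 on the CD73- arrays. The CD73+ arrays were all higher, with a gap of 0.41. The difference was 0.54 ± 0.07 (SE), or 1.45-fold, and ranked 494 among all genes. The level was above the upper quartile of every array.

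Serpinb9, whose human counterpart inhibits granzyme B and protects cells from their own or their attackers' granules, gave different readings at its 2 probe sets. The brighter one read 9.30, 9.25 and 9.26 on CD73+ arrays and 9.32, 9.25 and 9.24 on CD73- arrays. The groups overlapped, and the difference was 0.001 ± 0.05 (SE). The dimmer one read 6.60, 6.67 and 6.59 on CD73+ arrays and 6.10, 6.17 and 6.10 on CD73- arrays. It did not overlap and differed by 0.49 ± 0.06 (SE). Which of the 2 readings represents the gene was not tested.

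Serpinf1 encodes pigment epithelium-derived factor, a secreted serpin that does not inhibit proteases and is known as an inhibitor of vessel growth. Its signal lay above the upper quartile of every array. It read 12.82, 12.76 and 12.74 on CD73+ arrays and 12.75, 12.81 and 12.78 on CD73- arrays, so the groups overlapped, and the difference was -0.01 ± 0.06 (SE). The second probe set read 12.31, 12.29 and 12.31 on CD73+ arrays, against 12.22, 12.26 and 12.22 on CD73- arrays. These did not overlap, but the gap was only 0.04 and the difference 0.07 ± 0.05 (SE).

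Plat, the tissue plasminogen activator, had the second largest difference of the set. It read 9.67, 9.67 and 9.63 on CD73+ arrays, against 8.49, 8.48 and 8.32 on CD73- arrays. The gap between the groups was 1.14. The means were 9.66 ± 0.02 in CD73+ cells and 8.43 ± 0.10 in CD73- cells (SD, n = 3 each), a difference of 1.23 ± 0.07 (SE) or 2.34-fold, which ranked 37 among all genes. The second Plat probe set, below every array's median, read 5.13, 5.16 and 4.995 on CD73+ arrays and 4.81, 4.75 and 4.78 on CD73- arrays, with a difference of 0.32 ± 0.06 (SE) and no overlap.

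Plau, urokinase, was dim: both of its probe sets lay below the median of every array. The brighter read 4.44, 4.21 and 4.02 on CD73+ arrays and 3.73, 3.67 and 4.32 on CD73- arrays. CD73- replicate 3 reached into the CD73+ range, so the groups overlapped, and the difference was 0.32 ± 0.18 (SE). Without that array the difference was 0.52. The second probe set read 4.42, 4.54 and 4.14 on CD73+ arrays and 3.52, 3.67 and 3.68 on CD73- arrays, with a difference of 0.74 ± 0.11 (SE) and no overlap.

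Plaur, the urokinase receptor, is anchored in the membrane by a lipid, as CD73 is. It read 9.66, 9.70 and 9.70 on CD73+ arrays and 9.71, 9.70 and 9.56 on CD73- arrays. The groups overlapped and the difference was 0.03 ± 0.06 (SE). Its level was above the upper quartile of every array.

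**Figure D1:**
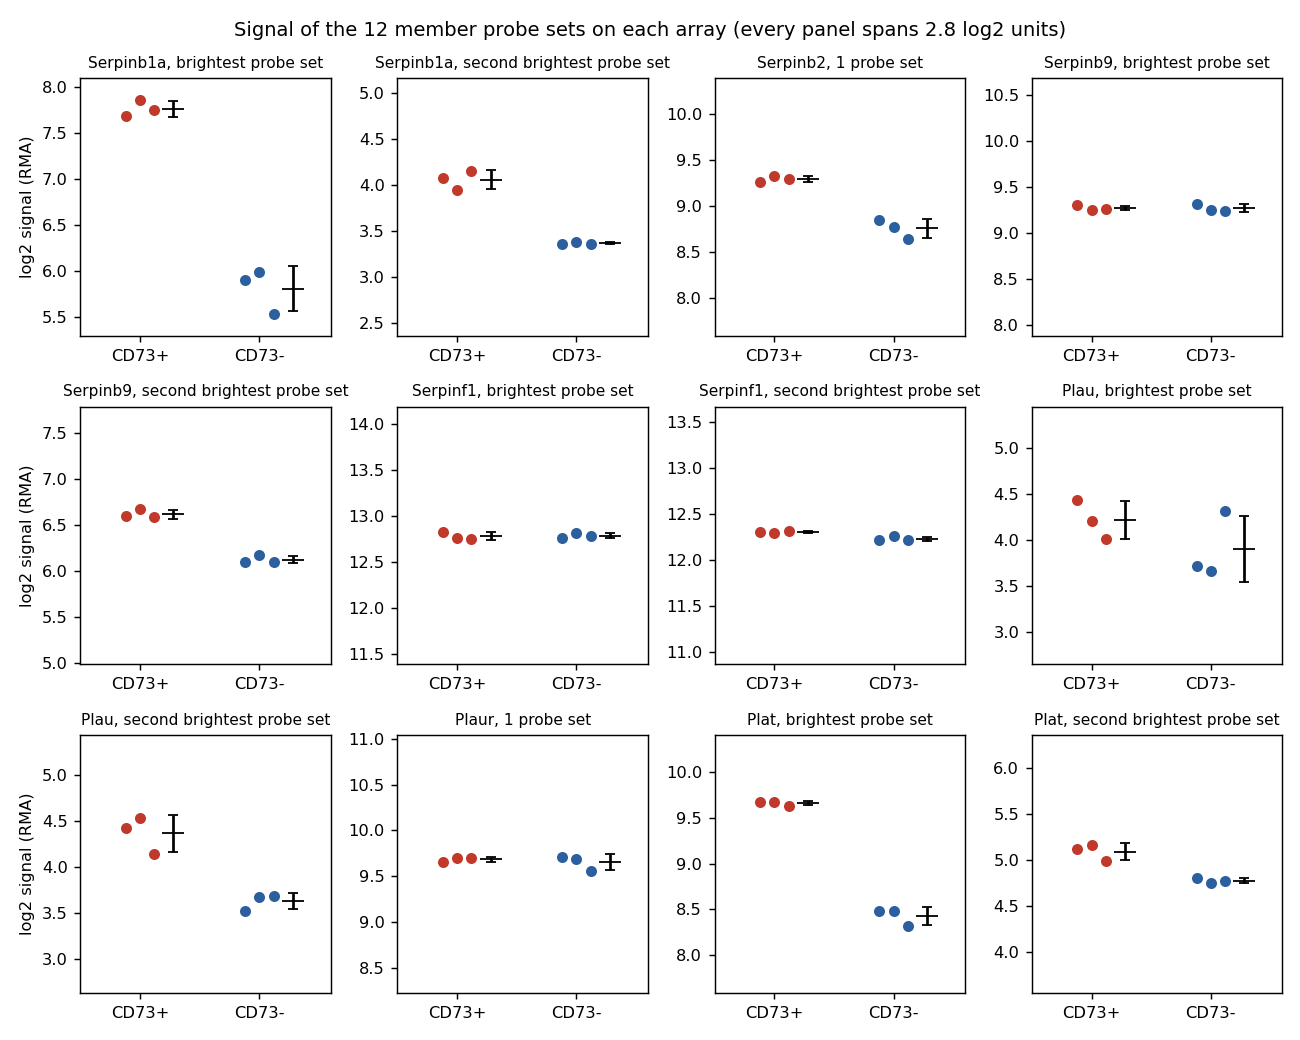
Log2 RMA signal of the 12 member probe sets, with 1 point per array, CD73+ (red) left of CD73- (blue) and the mean with SD beside each group. Every panel spans the same 2.8 log2 units, so that the gaps of 1.70 for Serpinb1a and 1.14 for Plat can be set against the overlapping groups of Serpinb9, Serpinf1, Plau and Plaur at their brightest probe sets.

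**Figure D2:**
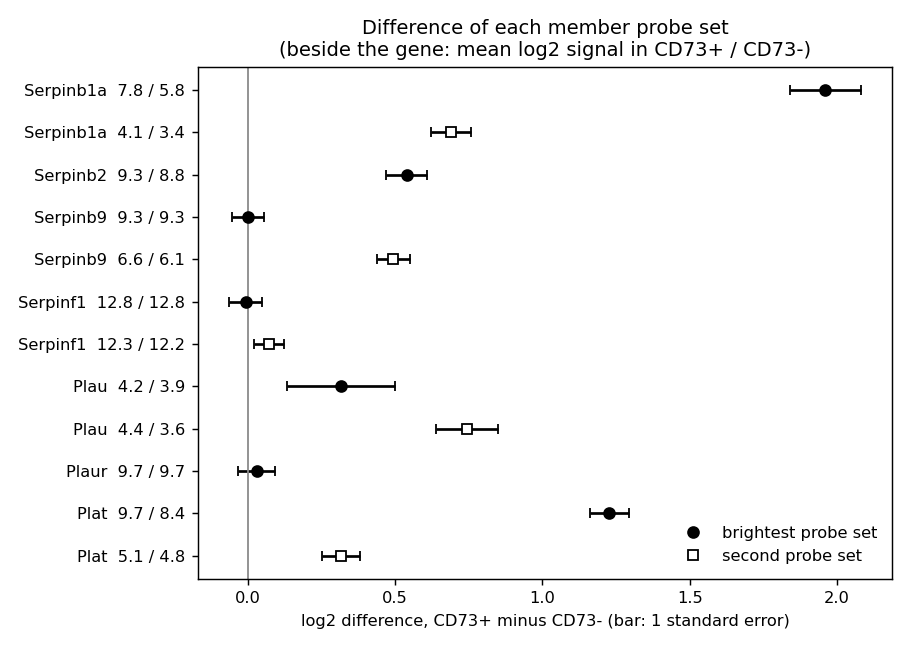
Difference in log2 signal between CD73+ and CD73- arrays for each member probe set, with bars of 1 standard error and filled circles for the brightest probe set of a gene. The brightest probe sets run from -0.01 for Serpinf1 to 1.96 for Serpinb1a, and the second probe sets of Serpinb9 and Plau lie above their brightest ones.

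Taken by brightest probe set, 3 of the 7 measured members (Serpinb1a, Serpinb2 and Plat) passed the adjusted threshold as higher in CD73+ cells, none as lower and 4 as neither. Across all genes 10.1% were called higher and 12.6% lower. Groups did not overlap in 3 members, against 40.8% of all genes. The contrast was used to choose the set, so nothing is read from these counts. Taken by probe set, 7 of 12 passed as higher and none as lower, where 9.79% of all 45037 probe sets were called higher and 9.11% lower. All 8 member probe sets without overlap had CD73+ on top, while 34.9% of all probe sets did not overlap and 17.7% did so with CD73+ on top, and nothing is read from these counts either. The median difference of the members was 0.32, against -0.02 over all genes. By sign, 6 members were higher and 1 lower, although the differences of Serpinb9, Serpinf1 and Plaur were smaller than their standard errors.

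The replicates also differed among themselves. Within the CD73- group, replicate 3 was the lowest array for 5 of the 7 members, and it was the lowest for 38.8% of all genes. Leaving out any 1 array kept Serpinb1a between 1.82 and 2.05, Plat between 1.17 and 1.26, and Serpinb2 between 0.48 and 0.59. Plau ranged from 0.20 to 0.52, and without CD73- replicate 3 it passed the threshold too, which made 4 members. Without that array 1610 of all genes were called higher and 2142 lower.

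The genes that followed Serpinb1a most closely over the 6 arrays were Selp, Fkbp14, S100a13, P4ha3 and Gpx7, with Pearson correlations between 0.9985 and 0.9990. Selp encodes the adhesion molecule P-selectin, and P4ha3 a subunit of the enzyme that hydroxylates collagen prolines. Selp read 8.13, 8.17 and 8.16 on CD73+ arrays, against 7.14, 7.22 and 6.90 on CD73- arrays. Among the members, Plat correlated with Serpinb1a at 0.997, Serpinb2 at 0.992, Plau at 0.44, Plaur at 0.42, Serpinb9 at 0.05 and Serpinf1 at -0.14. These values describe 6 arrays in 2 groups and mostly follow the difference between the groups. Over all genes, 2022 (11.1%) correlated with Serpinb1a above 0.9.

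Promoter sequence was available from RefSeq (GRCm38.p6) for Serpinb2, Serpinb9, Serpine2, Serpinf1 and Plaur. The promoters of Serpinb2 and Plaur are shown because both hold the letters TGANTCA, the motif of the AP-1 factors, while the 2 genes had different readings in these cells (differences of 0.54 and 0.03). They run from 250 bases before to 50 after the start of the gene, 5′ to 3′ on the strand of the gene, which is the plus strand for both, at chr1:107511173-107511472 and chr7:24462233-24462532. Capitals mark TGANTCA and, in Serpinb2, TATAAA.
Serpinb2: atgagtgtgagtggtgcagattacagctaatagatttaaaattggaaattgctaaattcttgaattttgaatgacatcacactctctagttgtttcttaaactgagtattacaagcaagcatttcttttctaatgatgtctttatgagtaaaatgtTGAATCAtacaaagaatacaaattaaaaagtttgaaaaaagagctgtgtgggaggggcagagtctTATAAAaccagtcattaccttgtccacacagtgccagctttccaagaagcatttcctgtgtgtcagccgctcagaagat
Plaur: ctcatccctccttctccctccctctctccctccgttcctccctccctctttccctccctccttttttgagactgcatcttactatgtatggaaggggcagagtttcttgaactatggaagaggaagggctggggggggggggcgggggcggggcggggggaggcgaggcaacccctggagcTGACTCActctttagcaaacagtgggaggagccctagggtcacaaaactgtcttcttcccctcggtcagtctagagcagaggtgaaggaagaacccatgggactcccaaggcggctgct

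Counted in bases from the start of the gene, the AP-1 match began at -94 in Serpinb2 and at -69 in Plaur. The TATA match of Serpinb2 began at -29. RefSeq gives Serpinb2 a second start, at whose window (chr1:107511260-107511559, not printed) the same matches began at -181 and -116. On both strands, TGANTCA was present in 7.81% of 32851 promoter windows of the same length and TATAAA in 13.6%. The Sp1 letters GGGCGG, present in 35.7% of windows, matched Plaur 3 times, Serpine2 6 times and Serpinb9 once, with some matches overlapping stretches of repeated G. The NF-kB letters GGGACTTTC (0.353% of windows) and the CRE letters TGACGTCA (1.79%) matched none of the 5 genes, and Serpinf1 matched none of the motifs searched. Such matches describe letters in a window and say nothing of binding.

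At brightest probe sets, no measured serpin next to Serpinb1a or Serpinb2 on its chromosome was called higher. The nearest measured serpin to Serpinb1a, Serpinb6b, differed by 0.43 ± 0.13 (SE) without overlap, and was not called (limma adjusted p = 0.0619). The dimmer probe set of Serpinb9 passed as higher, by 0.49. In the gene order of RefSeq, Serpinb1a and Serpinb9 lie in a run of 16 serpin genes on chromosome 13, of which 11 were measured. Besides the members, 1 gene of that run was called: Serpinb9g, a close relative of Serpinb9, was lower by 0.41 on the log2 scale (6.80, 6.73 and 6.56 on CD73+ arrays, against 7.11, 7.25 and 6.95 on CD73- arrays; limma adjusted p = 0.0258). That call was lost without CD73+ replicate 2 or 3 or CD73- replicate 1 or 2 (adjusted p of 0.0653 to 0.0822). Serpinb2 lies in a run of 12 on chromosome 1, of which 7 were measured and none of the other 6 called. Serpinf1 lies beside Serpinf2, the gene of the plasmin inhibitor alpha-2-antiplasmin, which differed by 0.01 ± 0.09 (SE).

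**Figure D3:**
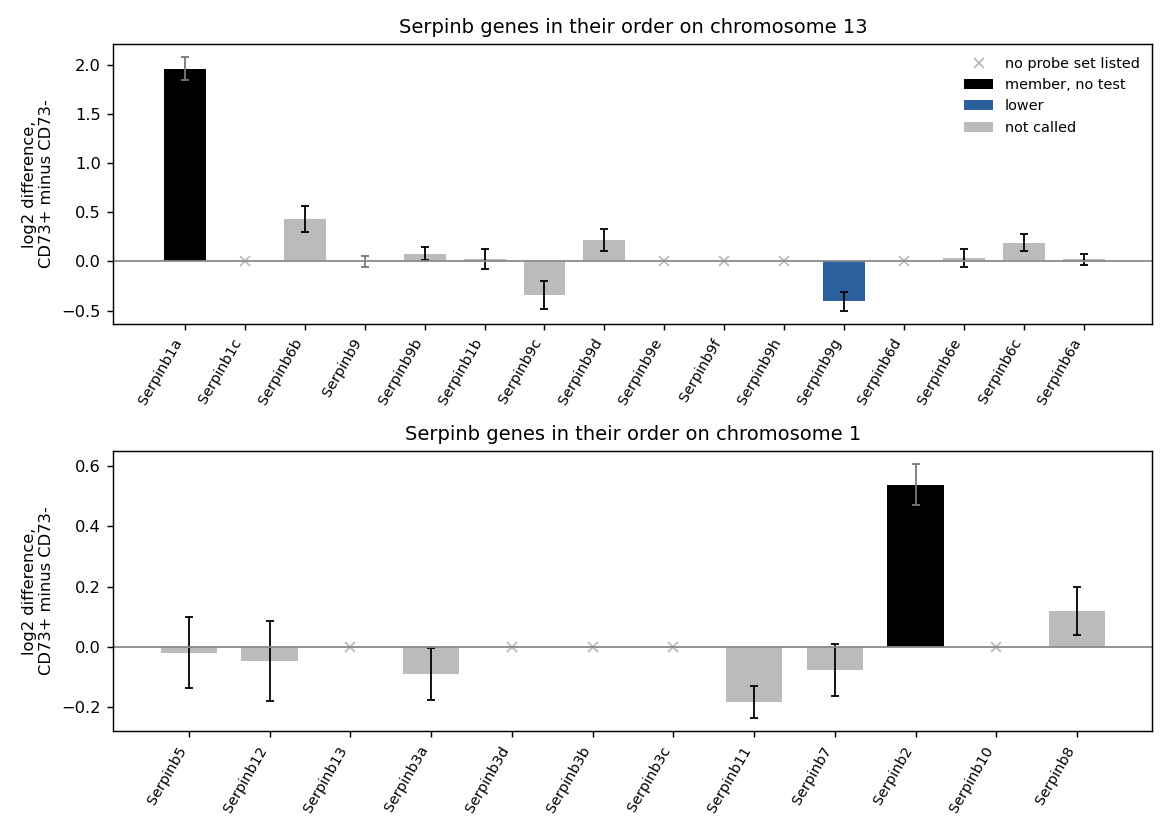
Difference in log2 signal (CD73+ minus CD73-, bars of 1 standard error) of the serpin genes in the runs that hold Serpinb1a (chromosome 13) and Serpinb2 (chromosome 1), in their order on the chromosome. Serpinb1a (1.96) and Serpinb2 (0.54) stand above their measured neighbours, and Serpinb9 is near 0 at its brightest probe set. Serpinb9g (-0.41) is the gene called lower in the run of chromosome 13, where Serpinb9c (-0.34) was not called. Crosses mark genes with no probe set of their own.

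Outside the set, 36 other serpins were measured, of which 3 were called higher and 1 lower, with a median difference of 0.03 and 22 genes below the median of every array. Groups did not overlap in 10 of them, against 40.8% of all genes. Across all genes 10.1% were called higher and 12.6% lower, and these shares also stand beside the counts of the lists below. Serping1, the C1 inhibitor that restrains complement and kallikrein, was higher by 1.11 (6.92, 6.82 and 6.67 in CD73+ cells, against 5.60, 5.94 and 5.54 in CD73- cells; limma adjusted p = 0.000948). Serpina3n, a secreted inhibitor of granzyme B in mice, was higher by 0.61 (adjusted p = 0.00178). Serpinh1, the collagen chaperone of the endoplasmic reticulum, was higher by 0.25 (adjusted p = 0.0469). The Serpinh1 call was lost without any 1 CD73+ array and without CD73- replicate 2 or 3 (adjusted p of 0.105 to 0.142), whereas those of Serping1 and Serpina3n held without each array. The second Serpinh1 probe set was also called higher, by 0.26 (limma adjusted p = 0.017).

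Of the plasminogen group, 12 of 14 listed genes were measured, 1 called higher and 2 lower, with a median of -0.05. Plasminogen itself (Plg) lay below the median of the arrays at 4.26, 4.08 and 4.21 in CD73+ cells and 4.18, 4.18 and 4.25 in CD73- cells, and was not called. S100a10, which with Anxa2 forms a cell-surface complex that binds plasminogen and tissue activator, was higher by 0.20 (limma adjusted p = 0.0382), but the call was lost without any 1 array (0.0778 to 0.103). Plgrkt, a membrane receptor for plasminogen, was lower by 0.26 on the log2 scale (adjusted p = 0.0188), a call lost without any 1 CD73+ array and without CD73- replicate 1 or 2 (0.0503 to 0.062). Fgb, the fibrinogen beta chain, was lower at a dim signal, with means of 3.54 in CD73+ cells and 4.04 in CD73- cells (adjusted p = 0.00701).

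Partners and uptake receptors of the urokinase receptor gave 5 genes called higher and 1 lower of 15 measured, with a median of 0.18. Mrc2, the collagen uptake receptor that associates with Plaur, read 8.12, 8.11 and 8.11 in CD73+ cells, against 7.44, 7.43 and 7.38 in CD73- cells, a difference of 0.70 (limma adjusted p = 0.00029). Its second probe set differed by 0.16 and was not called. Lrp1, the endocytic receptor that clears protease and serpin complexes, was higher by 0.61 (adjusted p = 0.00062), and its second probe set by 0.57. The integrin chain Itga3 was higher by 0.34 (adjusted p = 0.0117) at 1 of its 3 probe sets. Vldlr, another receptor for such complexes, was lower by 0.48 on the log2 scale (adjusted p = 0.0128). Its other 5 probe sets differed less, by -0.33 to -0.09, and 1 of them was called, also lower. The call of the brightest was lost without CD73+ replicate 1 (adjusted p = 0.0516).

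Coagulation genes and thrombin receptors had 4 genes called higher and 2 lower of 19 measured, with a median of 0.04. Pros1, protein S, the cofactor of activated protein C, read 8.08, 8.08 and 8.11 in CD73+ cells, against 6.93, 6.77 and 6.70 in CD73- cells, a difference of 1.29 (limma adjusted p = 0.000128). Tfpi, the inhibitor of the tissue factor pathway, was higher by 0.27 (adjusted p = 0.018), and all 4 of its probe sets were called. The thrombin receptor F2r was higher by 0.25 (adjusted p = 0.0275), with a second probe set at 0.19 that was not called. Procr, the receptor of protein C, was lower by 0.29 on the log2 scale (adjusted p = 0.0226), and F8 by 0.33 (adjusted p = 0.0149). Leaving out single arrays ended the calls of Tfpi (CD73+ replicate 2 or CD73- replicate 2), of F2r and Procr (replicate 1 or 2 of either group) and of F8 (CD73- replicate 1 or 2), with adjusted p of 0.0511 to 0.101, but not that of Pros1.

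Of 17 protease targets of serpins, 2 were called higher and none lower (3 higher and 1 lower at an unadjusted limma p under 0.05), with a median of 0.05. The targets named above for Serpinb1a were dim and not called: Elane differed by 0.18, Prtn3 by 0.12 and Ctsg by 0.05. Gzmb, whose product is the target named for Serpinb9, differed by 0.14 and was not called either. Groups did not overlap in 5 of the 17 targets, Elane and Gzmb among them, against 40.8% of all genes. Htra1, a secreted protease, was higher by 0.31 (adjusted p = 0.00708) and Casp8, the caspase of death receptors, by 0.23 (adjusted p = 0.0217). The Casp8 call was lost without replicate 1 or 2 of either group (adjusted p of 0.0545 to 0.0925), and the second Htra1 probe set was not called.

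**Figure D4:**
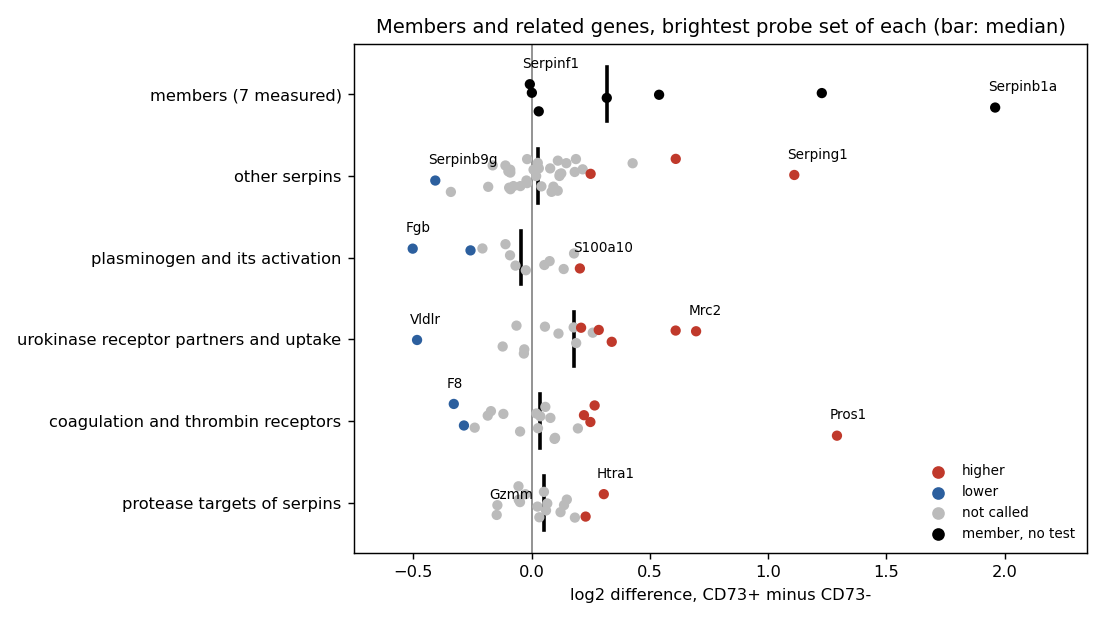
Difference in log2 signal (CD73+ minus CD73-) of the 7 measured members (black, no test) and of the genes in 5 related lists, 1 point per gene at its brightest probe set, with a bar at each median. Called genes are red (higher) or blue (lower); Pros1 (1.29) and Serping1 (1.11) lie farthest to the right outside the set, and Fgb and Vldlr farthest to the left.

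Markers of other cells that express several of these genes were also read. Of 14 macrophage markers, 2 were called higher (Cd14 by 0.50 and Csf1r by 0.49) and 1 lower (C1qc, a difference of -0.30). The median difference of the list was -0.03. Its mean level ranged from 4.62 to 4.71 in CD73+ arrays and from 4.57 to 4.68 in CD73- arrays. Ptprc, the defining leukocyte marker CD45, read 3.05, 3.15 and 2.99 in CD73+ cells and 3.09, 3.34 and 3.13 in CD73- cells, below the median of every array. Of 12 neutrophil and mast cell markers 1 was called (Camp, higher by 0.86), and 10 lay below the median of every array. No endothelial or lymphocyte marker was called by limma. Mesothelial and smooth muscle markers had 1 called higher each, Msln and Tagln. Of 7 adipocyte markers 1 was called, Pparg, lower by 0.24 on the log2 scale (limma adjusted p = 0.0253), with a median of -0.07 over the list. The part of these markers, and of the stromal ones, in the differences of the members was not tested. In bulk cultures a larger share of cells of a type and more RNA per cell cannot be told apart.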

How the data were processed

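Affymetrix mouse arrays were hybridised with RNA of CD73+ AD-MSCs (3 arrays) and CD73- AD-MSCs (3 arrays). A table of 45101 probe sets was deposited on the log2 scale. RMA is the tool that the submitters' notes name, with a version not given in the sources used here. RMA makes the distributions of arrays nearly alike and compresses ratios. Without 64 control probe sets, 45037 entered 1 limma fit (version 3.58.1, R 4.3.3; lmFit, eBayes, no filter, no block), with Benjamini-Hochberg adjustment over all and a threshold of 0.05. Probe sets were named from GEO's platform annotation: 34945 had 1 symbol, 932 several and 9160 none. The brightest probe set, by its mean on all 6 arrays, stood for a gene. Levels of different probe sets were not compared. The fit was tested on simulated data. The number of arrays limits the precision, and no depth applies.

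The members and the gene lists were chosen with earlier results of these data known. Named were all members, at most 3 risen and 3 fallen called genes of each related list (by size), Nt5e, and the 5 genes above the median level with the highest correlation to Serpinb1a; other genes, including neighbours and markers, were named after their values were seen. Alternatives were a replicate block, other scalings, a filter, other priors, array weights, the methods' t-test, other rules for probe sets and leaving out each array.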

Additional observations from a re-analysis of the deposited data

How the results depend on the processing

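Serpinb1a and Plat kept their direction and their side of the threshold under all 18 alternatives, and Serpinb2 under the 17 run for it, since it has 1 probe set. The contrast was used to choose the set and the alternatives reuse the same arrays. The member calls here therefore describe the processing only and are no test of the members. Scaling on the poly-A controls moved the differences to 2.89 for Serpinb1a, 1.47 for Serpinb2, 0.93 for Serpinb9, 0.92 for Serpinf1, 1.24 for Plau, 0.96 for Plaur and 2.15 for Plat, by its construction. It called 18048 genes higher and 19 lower (1840 and 2301 as deposited), and 7 members higher. Of the lists, it called 36 other serpins, 12 plasminogen, 15 receptor, 19 coagulation and 17 target genes higher, and 0 lower in any of them. It reversed F8 (0.60), Fgb (0.42), Plgrkt (0.67), Procr (0.64), Serpinb9g (0.52) and Vldlr (0.44). Averaging the probe sets of a gene gave 1.32 for Serpinb1a, 0.25 for Serpinb9, 0.033 for Serpinf1 and 0.77 for Plat. This averaging called 5 members higher, with 5 other serpins higher and 2 lower, where 2089 of all genes were called higher and 2222 lower. The second probe sets gave 0.69 for Serpinb1a, 0.49 for Serpinb9, 0.073 for Serpinf1, 0.74 for Plau and 0.32 for Plat. Genes with 1 probe set kept it in the counts under this rule. These counts had 5 members called higher, of which Serpinb2 stood at its only probe set, while the second Serpinf1 probe set was not called. They also had 0 plasminogen genes higher and 3 receptor genes called each way. Calls over all genes were not counted under this rule. No source used here states whether same-numbered arrays were paired. Their deviations correlated at -0.138, 0.028 and -0.136, and 2 of 6 arrays correlated best with their own number. With 3 arrays per group these values cannot decide the pairing. With a replicate block 1259 genes were called higher and 1477 lower, and of the lists 0 plasminogen genes higher and 1 lower, 1 coagulation gene higher and 1 lower, and 1 target higher; the member calls were the same. Median centring called 0 plasminogen, 3 receptor, 1 coagulation and 1 target gene higher. Of the plasminogen genes 2 were called higher with a filter that kept probe sets above the median (1 lower), cyclic loess, a trended prior, array weights and the methods' t-test. The filter and the trended prior each called 1 target lower, and array weights 2 other serpins lower. The methods' t-test called 2741 genes higher and 3441 lower unadjusted at its threshold and 1657 and 2016 after Benjamini-Hochberg adjustment, with 0 receptor genes and 1 coagulation gene lower. Leaving out 1 array gave 1170 to 1631 genes higher and 1410 to 2142 lower, 0 to 1 other serpins lower, 0 plasminogen genes higher and 1 to 2 lower, 3 to 6 receptor genes higher and 0 to 1 lower, 1 to 3 coagulation genes higher and 0 to 2 lower, and 1 to 2 targets higher. Except where the alternative's construction shows it, the cause was not tested. Both Plau probe sets lay below the median of every array, and the part of low signal in their readings was not tested.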
